A study of Drosophila melanogaster with 3 samples.

Results

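A divergent promoter is a stretch of DNA from which a pair of neighbouring genes is transcribed in opposite directions, 1 on each strand. The regions described here are the 714 of 3922 passing sites of CG16815 that lay between such promoters (18.2%, 95% exact binomial interval 17.0 to 19.4). A passing site is a region of the authors' final list, and its summit is the base where their peak caller placed the maximum. A site was a member when its summit lay within 500 bp of a protein-coding transcription start site (TSS) and between a minus-strand TSS on its left and a plus-strand TSS on its right, at most 1000 bp apart. Beyond the list itself, the measured signal had no part in that rule. The members lay between 669 gene pairs, and each site is named here by its minus-strand gene and then its plus-strand gene.

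The data come from chromatin immunoprecipitation followed by sequencing (ChIP-seq), which finds the DNA that a protein sits on. Embryos of both sexes were pooled and taken whole at 0 to 10 hours after laying. All 3 biological replicates carry the same transgene, a stable insertion that makes CG16815 with GFP at its C terminus, and the immunoprecipitation used an antibody to GFP. There is 1 group, no untagged line and no second condition, and no control library was analysed here. Replicate 1 had 30000 called regions, replicate 2 had 21989 and replicate 3 had 27358. Read depth is unknown, so the intervals given below cover counting error over sites only. A whole embryo mixes many cell types, and binding in more cells and stronger binding in each cell cannot be told apart. CG16815 is an uncharacterised protein. Its own gene (chromosome 2L, 13229832 to 13230549, plus strand, dm6) is in no divergent pair, and the nearest divergent site, between Ski6 and CG16812, had its summit 7375 bp away.

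Head-to-head gene pairs are common in the compact Drosophila genome. Their shared upstream DNA is short, usually open and free of nucleosomes, and it must serve core promoters that face away from each other. Many of the genes concerned act in every cell, in protein synthesis, mitochondria, the cell cycle or chromatin. Factors known from such promoters include DREF, which binds the DNA replication-related element (DRE), the boundary protein BEAF-32, which binds clusters of a short core that also lies inside the DRE, and M1BP, which binds promoters that lack a TATA box.

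Printed first are windows of 50 bp either side of the summit, on the plus strand of dm6 and read 5′ to 3′, at 6 of the strongest divergent sites, to show the sequence under the peak. The windows of Chro with Ssl1 and of Ugalt with eIF2Bbeta overlap an annotated exon and are not printed. Capitals mark a match to any of the 12 motifs searched (spelled out with the motif results), and the other bases are in lower case.
Art3 with mRpS10, chr3R:15229480-15229580: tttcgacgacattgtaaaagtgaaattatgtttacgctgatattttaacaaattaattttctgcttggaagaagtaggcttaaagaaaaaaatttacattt
Tcs5 with CHMP2B, chr3L:5139450-5139550: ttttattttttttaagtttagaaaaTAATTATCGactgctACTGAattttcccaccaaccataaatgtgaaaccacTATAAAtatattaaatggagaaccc
Atat with Shc, chr3L:9426843-9426943: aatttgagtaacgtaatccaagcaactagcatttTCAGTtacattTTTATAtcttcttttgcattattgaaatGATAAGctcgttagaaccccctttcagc
CG5611 with Mtl, chr3R:27636134-27636234: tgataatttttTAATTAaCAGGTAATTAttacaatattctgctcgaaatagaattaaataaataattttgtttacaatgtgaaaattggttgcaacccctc
mRpS23 with CenG1A, chr2L:13835410-13835510: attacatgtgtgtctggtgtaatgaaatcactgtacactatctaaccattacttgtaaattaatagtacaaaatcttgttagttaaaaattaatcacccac
Lon with PIG-F, chr3L:19612246-19612346: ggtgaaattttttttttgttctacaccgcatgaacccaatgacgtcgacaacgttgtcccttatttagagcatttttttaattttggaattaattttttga

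The next windows are from 3 of the strongest divergent sites that hold a DRE, to show that element beside the summit. The window between Sfmbt and CG5439 overlaps an exon and is not printed.
CG7369 with its minus-strand partner, chr3L:22741644-22741744: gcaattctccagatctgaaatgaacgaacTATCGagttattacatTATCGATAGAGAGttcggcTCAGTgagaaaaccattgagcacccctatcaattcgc
RpL28 with eIF1, chr3L:3223005-3223105: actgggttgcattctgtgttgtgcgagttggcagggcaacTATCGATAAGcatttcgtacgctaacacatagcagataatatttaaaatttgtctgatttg
dsd with Tusp, chr3R:27607402-27607502: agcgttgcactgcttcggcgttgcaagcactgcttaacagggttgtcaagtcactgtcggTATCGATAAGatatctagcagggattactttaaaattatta

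The strongest windows are rich in A and T, as were passing sites in general, which averaged 32.2% GC. Lowest among them, the window between CG5611 and Mtl had 23.8% GC and an uninterrupted run of 18 A or T bases, and that between Art3 and mRpS10 had 25.7% GC. Those of Chro with Ssl1 and of Ugalt with eIF2Bbeta were highest, at 33.7% each. The 4 windows chosen for their DRE had 35.6 to 42.6% GC. The printed windows of both sets lay clear of annotated coding-transcript exons, in the DNA between the TSSs.

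The strongest divergent site lay between Chro, which encodes the chromosomal protein Chromator, and Ssl1, a subunit of the general transcription factor TFIIH. It had a signal of 2729.8 (chromosome 3L, 22878695 to 22879119) and ranked 5, 4 and 5 in replicates 1, 2 and 3. Its summit was 127 bp from the TSS of Chro and 194 bp from that of Ssl1, and 1 further coding TSS lay between them. The site between Ugalt, a UDP-galactose transporter, and eIF2Bbeta, a subunit of the exchange factor that recharges the initiation factor eIF2, had a signal of 2640.4. It ranked 3, 3 and 19, and its summit was 43 bp from the Ugalt TSS and 676 bp from that of eIF2Bbeta. These sites were within the top 20 of all 3 lists, although replicate 3 placed the second of them lower than the others did.

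Between Art3, an arginine methyltransferase, and mRpS10, a protein of the small mitochondrial ribosomal subunit, the signal was 2257.5 and the ranks were 15, 11 and 7. Between Tcs5 and CHMP2B, a component of the ESCRT-III membrane-remodelling complex, the signal was 2238.2 and the ranks were 9, 10 and 11. The site between Atat, an alpha-tubulin acetyltransferase, and Shc, an adaptor of receptor tyrosine kinases, had a signal of 1888.2 and ranked 11, 17 and 67. Ranks in replicates 1 and 2 were close at all of these sites, and in replicate 3 the last of them stood apart.

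Other sites among the 25 strongest found in every replicate had genes of varied function beside them. Those between mRpS23 and CenG1A (signal 1732.7), mRpL41 and CG8079 (1544.9) and mRpL23 and CG9004 (1440.5) flank mitochondrial ribosomal genes. Lon (1665.1) encodes a protease of the mitochondrial matrix, PNPase (1655.1) a mitochondrial polynucleotide phosphorylase, PTPMT1 (1502.8) a mitochondrial phosphatase and Coq4 (1202.5) a protein of coenzyme Q synthesis. Bdp1, a TFIIIB subunit of the RNA polymerase III machinery, was paired with CG6565 (1538.0). Between Fer1HCH and Fer2LCH, which encode the heavy and the light chain of secreted ferritin, the signal was 1166.9 and the ranks were 92, 82 and 56. 

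The 25 strongest had median ranks of 36 in replicate 1, 32 in replicate 2 and 56 in replicate 3, and none ranked below 92, 82 and 172 in those lists. Of the 25 strongest passing sites of any kind, 7 were divergent, as were 32 of the 100 strongest. The weakest member, between Pgi and lin, had a signal of 124.8 and ranked 4295 and 3559 in replicates 1 and 2, with no match in replicate 3. Ranks differed most at the sites between Apc and spg (28492, 3585 and 5722), between eIF3h and senju (1987, 2539 and 27279) and between Cul5 and Bicra (27172, 2470 and 1505). Each of these 3 stood far down in 1 list only, which was replicate 1 for the first and the last and replicate 3 for the second.

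**Figure D1:**
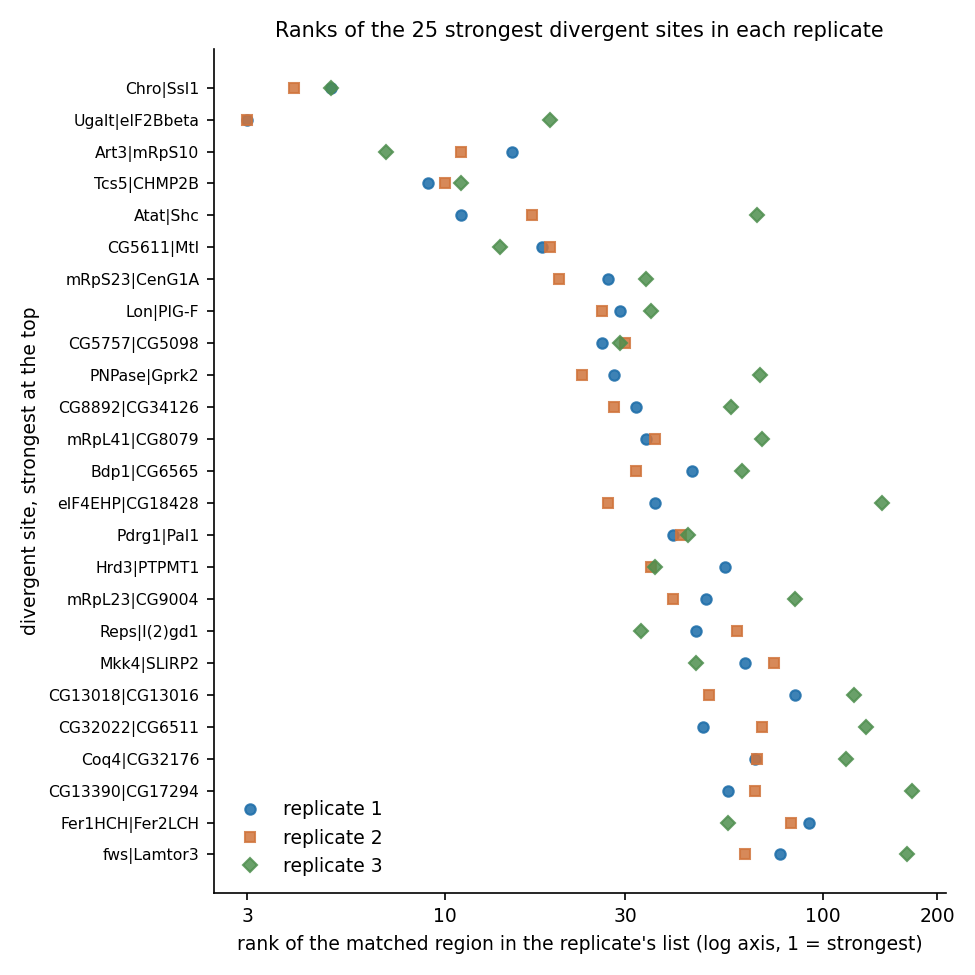
Rank of the matched region in each replicate's list (log axis, 1 is the strongest) for the 25 strongest divergent sites, strongest at the top, 1 symbol per replicate. Replicates 1 and 2 lie close together on most rows, and replicate 3 lies to the right at several sites, such as eIF4EHP with CG18428 (36, 27 and 143).

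The next comparison asked whether divergent intervals held more of the best-ranked summits than of the rest of each list, with replicates as the unit. N stands for 3922, the length of the final list. In the N best-ranked summits, 15.7, 19.4 and 16.4% lay between divergent promoters in replicates 1, 2 and 3, against 1.37, 3.58 and 2.53% in the remainder of the same lists. The difference was 14.6 percentage points ± 1.02 (SD, n = 3), positive in 3 of 3 replicates, with p = 0.25 by the exact two-sided sign-flip permutation test. That is the smallest p that 3 replicates allow, so the test cannot reach 0.05. In the pooled list, 3.57% of the 14842 regions that did not pass lay between divergent promoters, that is 530 regions. For sites upstream of a single promoter the same difference was 13.7 points ± 2.06, on higher shares in both portions of the list.

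Divergent intervals cover 1112777 bp, or 0.809% of the chromosome arms. They held 642 passing sites per Mb (95% exact Poisson interval 595 to 690), against 147 per Mb (137 to 157) in the 500 bp upstream of single promoters and 28.5 per Mb (27.6 to 29.4) over the arms. The N best summits of the replicates gave 552, 683 and 577 per Mb in divergent intervals, against 139, 147 and 123 upstream of single promoters. The ratio was 3.97, 4.65 and 4.70, a mean of 4.44 ± 0.404 (SD, n = 3). Regions that did not pass were also denser there, at 476 per Mb against 219 per Mb upstream of single promoters. Divergent intervals have a TSS at each end, while the single-promoter space runs up to 500 bp from its TSS. Distance to a TSS thus differs between these spaces, and the densities are not adjusted for it. At 75 to 200 bp from the nearer TSS were 66.8% of divergent and 37.0% of single-promoter summits.

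Signal at divergent sites had a median of 260.4 (quartiles 178.6 and 409.2), against 241.0 (165.1 and 405.9) at the 872 passing sites upstream of a single promoter and 218.4 at all passing sites. These ranges overlap over most of their length. By rank, which alone can be compared between lists, divergent sites stood 5.01, 6.63 and 6.58% down the lists of replicates 1, 2 and 3 at the median, against 5.29, 7.44 and 7.22% for single-promoter sites. The difference was -0.58 percentage points ± 0.27 (SD, n = 3), negative in 3 of 3 replicates (exact sign-flip permutation p = 0.25, the smallest possible). It changed sign, to 0.21, when the comparison was limited to the 1961 strongest passing sites, and it was -1.24 with a largest spacing of 500 bp.

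A divergent site counted as found in a replicate when that list had a summit within 150 bp, and as among its N best when the nearest such summit ranked in the top 3922. Since the list was made from these replicates, some of this recovery follows from how it was made. Of the 714, replicate 1 held 656, replicate 2 held 710 and replicate 3 held 682, and 624 were in all 3. Among the N best were 81.1, 96.5 and 76.9% of them, against 81.5, 92.9 and 72.0% of single-promoter sites. The difference of 2.68 points ± 2.78 (SD, n = 3) was smaller than its own spread and negative in replicate 1 (exact sign-flip permutation p = 0.5). In the N best of all 3 replicates were 460 divergent sites (64.4%, 60.8 to 67.9), against 505 single-promoter sites (57.9%, 54.6 to 61.2) and 56.0% of all passing sites.

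Spearman's rho of signal across divergent sites was 0.87 for replicates 1 and 2 (653 sites), 0.70 for replicates 1 and 3 (625) and 0.74 for replicates 2 and 3 (680). These are descriptions over sites that share libraries, and no p was attached. Of the sites missing from the N best of 1 replicate only, 103 were missing from replicate 3, 76 from replicate 1 and 6 from replicate 2. A total of 4 members had a match in 1 replicate alone. Among them was the site between Ski6, an RNA exosome subunit, and CG16812, found in replicate 3 only at rank 1429, which is the member nearest to the CG16815 gene.

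The reverse view takes every divergent promoter pair of the annotation and asks which held a site. Of 2511 pairs of neighbouring coding TSSs, 558 held at least 1 passing summit (22.2%, 20.6 to 23.9). These pairs have no other coding TSS between them. They hold 587 members, and the 127 with a further coding TSS between are left out. The share was 19.3, 23.8 and 20.1% with the N best summits of replicates 1, 2 and 3. It varied with the spacing of the TSSs, given here in bins that include their upper bound and not their lower one. Up to 100 bp, 10 of 416 pairs held a site (2.40%, 1.16 to 4.38), and at over 100 to 200 bp 33 of 344 did (9.59%, 6.70 to 13.2). At 200 to 300 bp the share was 33.3% (29.3 to 37.6), at 300 to 400 bp 37.1% (32.2 to 42.2) and at 400 to 500 bp 30.5% (24.9 to 36.7). It was 22.7% (18.7 to 27.1) at 500 to 750 bp and 17.6% (12.7 to 23.5) at 750 to 1000 bp. Each replicate had its 3 highest shares in the bins over 200 and up to 500 bp, and its lowest in the closest pairs.

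Wider intervals offer more bases for a summit to fall in. Per base, density was highest at 200 to 300 bp, while the share of pairs was highest at 300 to 400 bp. At 200 to 300 bp the density was 1.31 summits per kb of interval, against 0.423 up to 100 bp and 0.232 at 750 to 1000 bp. The pooled list had a region of any strength in 45.7% of pairs at 200 to 300 bp, in 6.49% up to 100 bp and in 41.9% at 750 to 1000 bp. Of the pairs with any pooled region, 73.0% held a passing one at 200 to 300 bp, against 37.0% up to 100 bp and 42.0% at 750 to 1000 bp. Median signal, here over all 714 members, was likewise 319.5 at 200 to 300 bp and 206.0 at 750 to 1000 bp. Spacing had a median of 346.5 bp in the 558 pairs with a site (quartiles 257 and 482), against 279 bp in the 1953 without (121 and 499).

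**Figure D2:**
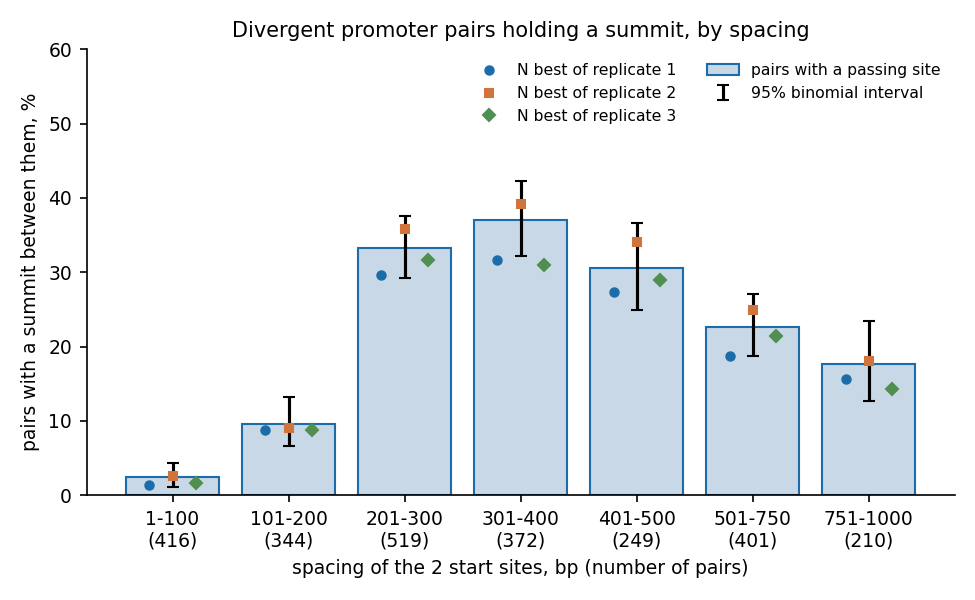
Percentage of neighbouring divergent TSS pairs with a summit between them, by TSS spacing in bp with the number of pairs in brackets. Bars are passing sites with 95% exact binomial intervals, and symbols are the N best summits of each replicate. The bars go up to 37.1% at 300 to 400 bp and are lower on both sides, with 2.40% in the closest pairs.

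The closest pair with one of the 25 strongest sites was CG32022 and CG6511, whose TSSs are 52 bp apart (signal 1225.3, ranks 48, 69 and 130). The widest was mRpL41 with CG8079 at 762 bp. At the limit of the rule, the pairs just inside 1000 bp were Smg5 with Ance (984 bp, signal 139.4), Pax with Lectin-galC1 (977 bp, 318.9) and Ank2 with Mcad (955 bp, 333.1). Just outside it were Eno with Rrp40 (1015 bp, 834.9), PMCA with Hcf (1021 bp, 129.1) and Rpn11 with qtc (1025 bp, 200.9).

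Pairs of neighbouring TSSs with 2 passing sites numbered 29, and none had more. They included La, an RNA-binding protein of RNA polymerase III transcripts, with RtGEF, and Pex16 with Pex14, both peroxins of peroxisome assembly. By chromosome arm, the share of pairs with a site was 28.3% on 3R (24.8 to 32.0), 25.2% on 3L, 22.0% on 2L, 19.6% on 2R and 13.4% on X (10.2 to 17.1). X was lowest of the 5 large arms in each replicate, at 12.3, 15.6 and 12.8%. On chromosome 4, 0 of 12 pairs had one (upper bound of the exact interval 26.5%), although 6 had a region in the pooled list. The N best summits of replicates 1, 2 and 3 fell in 0, 0 and 16.7% of those pairs.

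Within the interval, the nearer TSS was 115 bp from the summit at the median (quartiles 81.3 and 153.8), and 477 summits (66.8%) were 75 to 200 bp from it. At the 178 sites with TSSs over 500 bp apart the median was 168.5 bp (122 and 229.8), against 215 bp (138 and 319.3) at single-promoter sites. The distance to the nearer of a pair of TSSs is bounded by their spacing, while single-promoter sites may lie up to 500 bp away, so these values are not a like-for-like comparison. By spacing, the median distance to the nearer TSS was 23 bp up to 100 bp, 48 bp at 100 to 200 bp, 98 bp at 200 to 300 bp, 124 bp at 300 to 400 bp, 142 bp at 400 to 500 bp, 176 bp at 500 to 750 bp and 152 bp at 750 to 1000 bp. Distance from the midpoint, as a share of the distance from midpoint to TSS, had a median of 0.36 up to 100 bp and 0.37 at 100 to 200 bp. It was lowest at 200 to 300 bp, at 0.22, and then 0.28 at 300 to 400 bp, 0.34 at 400 to 500 bp, 0.41 at 500 to 750 bp and 0.63 at 750 to 1000 bp. Summits were thus nearest the centre at 200 to 300 bp and farthest from it in the widest intervals.

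Over all members the relative distance was 0.30, and 503 summits (70.4%, 67.0 to 73.8) lay in the central 50% of their interval. Nearer the plus-strand TSS were 383 summits, nearer the minus-strand TSS 329, and 2 were at the midpoint. The median summit of the matched sites lay to the plus-strand side of the midpoint in each replicate, by 8.5, 9.25 and 7.5 bp (mean 8.42 ± 0.878, SD, n = 3). All these values describe the same members, matched within 150 bp, so that SD does not cover variation over sites. From the replicates' own summits the median relative distance was 0.32, 0.34 and 0.35, and the median distance to the nearer TSS was 114, 111 and 114 bp. Positions of 1 site varied between replicates by a median SD of 26.8 bp over the 624 sites found in all 3. The 3 replicates put the summit nearer the same TSS at 420 of these (67.3%), and at 132 of the 149 with TSSs over 500 bp apart (88.6%).

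**Figure D3:**
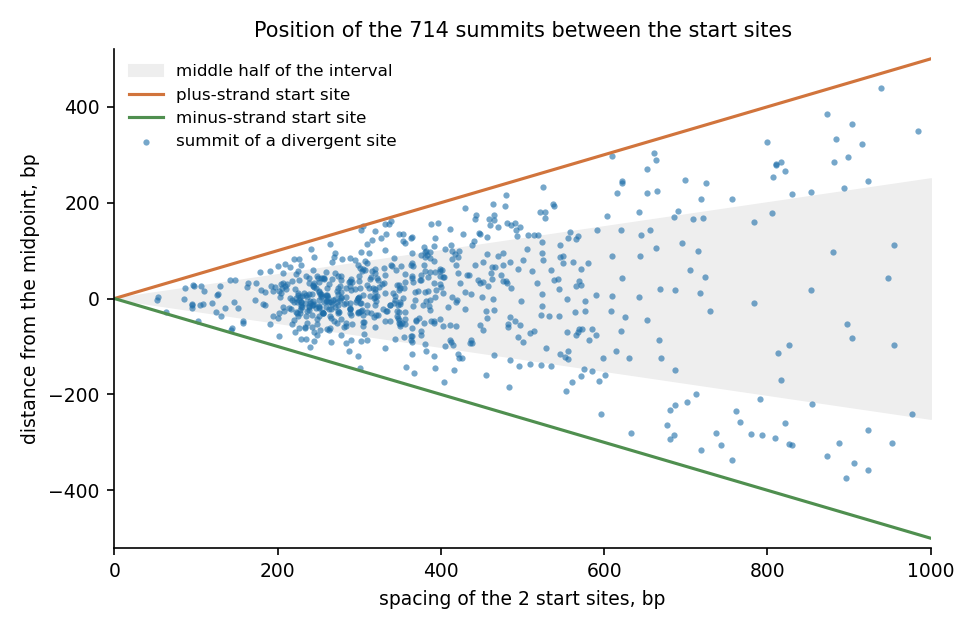
Distance of each of the 714 summits from the midpoint of its interval (vertical, bp, plus-strand direction upward) against TSS spacing (horizontal, bp). The lines are the TSSs and the grey wedge is the central 50% of the interval, which holds 70.4% of the summits. At wide spacing many points leave the centre and run parallel to 1 of the lines.

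GC content was read from the dm6 reference within 50 bp of each summit. It averaged 30.9% ± 9.01 at divergent sites (SD over sites), against 33.0% ± 8.96 at single-promoter sites and 32.2% at all passing sites. In the N best summits the difference between divergent and single-promoter sites was -2.18, -1.67 and -2.14 percentage points in replicates 1, 2 and 3 (mean -2.0 ± 0.28, SD, n = 3; exact sign-flip permutation p = 0.25, the smallest possible). Runs of at least 20 A or T bases were in 10.2% of divergent windows, against 6.54% of single-promoter windows. The 179 divergent sites with the highest signal had 29.2% GC, and the 179 with the lowest had 32.4%. TSS spacing differed between these sets as well, with medians of 309 and 411 bp, and the parts of signal and spacing were not separated.

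Divergent intervals without a site were also poor in GC. At the midpoints of the 1584 pairs with no region in the pooled list GC was 36.1%. Spacing moved with this contrast: among pairs over 200 and up to 500 bp apart, GC was 29.6% at the divergent summits, against 30.2% at midpoints of the 577 pairs with no region. Midpoints of the 387 pairs with a site in that range had 25.8%. Summits leaned to the GC-poor part of their interval, though less than midpoints did. A median of 64.9% of the positions had higher GC than the summit, against 74.4% for the midpoint. In the GC-poorest quartile of positions were 38.5% of summits and 49.0% of midpoints, and 12.5% of summits were in the richest.

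**Figure D4:**
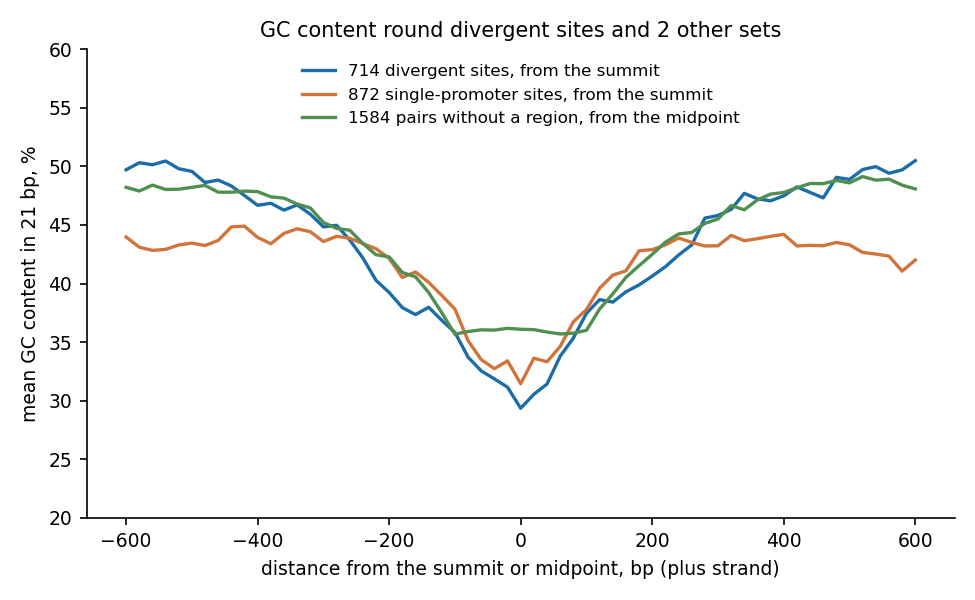
Mean GC content in 21-bp windows (%), by distance from the summit of the 714 divergent sites, from the summit of the 872 single-promoter sites and from the midpoint of the 1584 divergent pairs with no region in the pooled list (bp, plus strand). GC was lowest at the summit, at 29.4% for divergent and 31.4% for single-promoter sites, and at 600 bp to the left it was 49.7 and 44.0%.

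The motifs were searched on both strands of the same windows. Those of promoter and boundary factors were TATCGATA for the DRE, CGATA for the core site of BEAF-32, GGTCACAC for the core of promoter motif 1, which M1BP binds, CAGCTG for the E-box of promoter motif 5, and AGGNGGC for the core site of CTCF. For the core promoter itself the search used TATAAA for the box bound by the TATA-binding protein and TCAGT for the initiator. Those of other sequence-specific factors were GAGAG for the GAGA factor Trl, GATAAG for factors of the GATA family, TAATTA for the core site of homeodomains, CACGTG for the E-box of Myc, and CAGGTA for the early embryonic factor Zelda. The CGATA core lies inside the DRE, once on each strand, so every DRE also counts as a core. A match says only that the letters are present.

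The DRE was in 19 divergent windows (2.66%), against 12 single-promoter windows (1.38%) and 37 of all 3922 passing windows (0.943%), so divergent windows held 19 of the 37. Its share in the replicates' N best divergent summits was 1.79, 2.89 and 4.05%. The BEAF-32 core was in 138 (19.3%), against 15.0% of single-promoter and 13.2% of all passing windows, and the TATA box letters were in 212 (29.7%), against 23.1 and 24.9%. The homeodomain core was in 14.4%, against 9.17 and 11.0%. Lower in divergent windows were GAGAG, at 5.32% against 8.72 and 8.41%, the initiator, at 15.0% against 17.2 and 17.8%, and the CTCF core, at 1.40% against 1.95 and 2.24%. The other 5 motifs were each in under 5% of divergent windows: GATA in 4.90%, the motif 5 E-box in 3.08%, Zelda in 1.96%, the Myc E-box in 0.700% and the motif 1 core in 0.560%. TATAAA and TAATTA hold only A and T, and GC content differed between the sets in the direction given above.

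Set against the midpoints of divergent pairs with no pooled region, the DRE share was lower under the divergent sites, at 2.66% against 6.63%. The BEAF-32 core was in 19.3% against 28.8%, the motif 5 E-box in 3.08% against 8.96% and the motif 1 core in 0.560% against 4.17%. Spacing moves with these contrasts too. Among pairs over 200 and up to 500 bp apart the DRE was in 2.66% of divergent windows, against 1.04% of such midpoints, the BEAF-32 core in 18.2% against 14.4%, the motif 5 E-box in 2.86% against 3.47% and the motif 1 core in 0.613% against 0.173%, on 3 windows and 1 window. These contrasts set a summit against a midpoint. At the midpoints of the 387 pairs with a site in that range the DRE was in 1.03%, against 1.04% at midpoints of pairs with no region, and the BEAF-32 core was in 12.4%, against 14.4%. The motif 5 E-box was in 0.517%, against 3.47%, and the motif 1 core in 0 of 387 (upper bound of the exact interval 0.949%), against 0.173%. At matched positions none of these 4 motifs was more common in pairs with a site. Other motifs were: the TATA box letters were in 37.2% against 26.0%, the homeodomain core in 21.4% against 12.7% and Zelda in 2.33% against 1.04%. GAGAG, GATA, the initiator, the Myc E-box and the CTCF core were less common there. GC also differed between these midpoints, as given above, and its part in the A and T motifs was not tested.

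Genes flanking the sites were sorted into 17 lists by function, written from general knowledge. Of the names written, 23 of 31 in the insulator list and 40 of 50 in the spliceosome list matched an annotated coding gene, so these shares cover the matched genes only. The insulator list also holds some general chromatin proteins. Of the 4999 coding genes in divergent pairs, 1377 flanked a divergent site (27.5%), or 23.8, 28.9 and 24.8% with the N best summits of replicates 1, 2 and 3. The 4999 are genes of neighbouring pairs, plus any that flank a member across a further coding TSS. Genes of such wider pairs without a site are not counted, which can raise this share and those of the lists. Of the 17 lists, 11 had a higher share than the 27.5%, and no set test was run. Cytoplasmic ribosomal protein genes flanked a site in 31 of 56 cases (55.4%, 41.5 to 68.7), with RpS27 (signal 791.8), RpL34b (764.6), RpL7 (755.7) and RpS20 (409.1) the strongest. Genes of mitochondrial ribosomal proteins did so in 21 of 59 (35.6%, 23.6 to 49.1) and translation factors in 10 of 28 (35.7%), among them eIF4EHP (1531.9), a cap-binding repressor of translation.

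Genes that organise or transcribe chromatin followed. Insulator and promoter architecture proteins flanked a site in 6 of 11 cases (54.5%, 23.4 to 83.3), including Chro, the insulator cofactor Cp190 (985.3), M1BP itself (468.2) and pzg (453.7), a partner of Chromator and of DREF. RNA polymerase II and Mediator genes did so in 18 of 45 (40%, 25.7 to 55.7), led by the Mediator subunits MED27 (707.5) and MED17 (623.4) and the polymerase subunits Polr2B (602.8) and Polr2H (553.1). Polycomb and trithorax group genes were close to the overall share, at 7 of 25 (28.0%), with brm (910.5), the ATPase of the Brahma remodelling complex, and E(z) (775.4), the histone H3 methyltransferase of the Polycomb group, the strongest.

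Cell cycle and mitosis genes flanked a site in 18 of 37 cases (48.6%, 31.9 to 65.6), led by the checkpoint kinase mei-41 (547.9) and SAK (483.2), the kinase of centriole duplication. DNA repair genes did so in 11 of 28 (39.3%) and DNA replication genes in 7 of 26 (26.9%). The vesicle transport list had 16 of 38 (42.1%), with Vps33B (1165.1) and the coatomer subunit alphaCOP (793.0) the strongest. Besides that of DNA replication, shares under the overall one were those of the spliceosome (10 of 37, 27.0%), RNA polymerases I and III (3 of 13, 23.1%), nucleoporins (5 of 22, 22.7%), RNA decay (4 of 19, 21.1%) and the proteasome (3 of 26, 11.5%, 2.45 to 30.2). Aminoacyl-tRNA synthetases (7 of 23, 30.4%) and the respiratory chain (13 of 43, 30.2%) were slightly over it.

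With no count over all divergent pairs to set beside it, both genes of a pair were in a list at 13 sites. They joined RpS27 with the nucleoporin Nup37 (791.8), RPA1 with Mcm2 (535.0), subunits of the single-strand binding protein and of the replicative helicase, and MED30 with Rev1 (465.1), a translesion DNA polymerase. RpL28, a protein of the large ribosomal subunit, faced eIF1 (367.0), an initiation factor, across the DRE printed above. Cdk1, the mitotic kinase, faced mRpS7 (221.8).

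**Figure D5:**
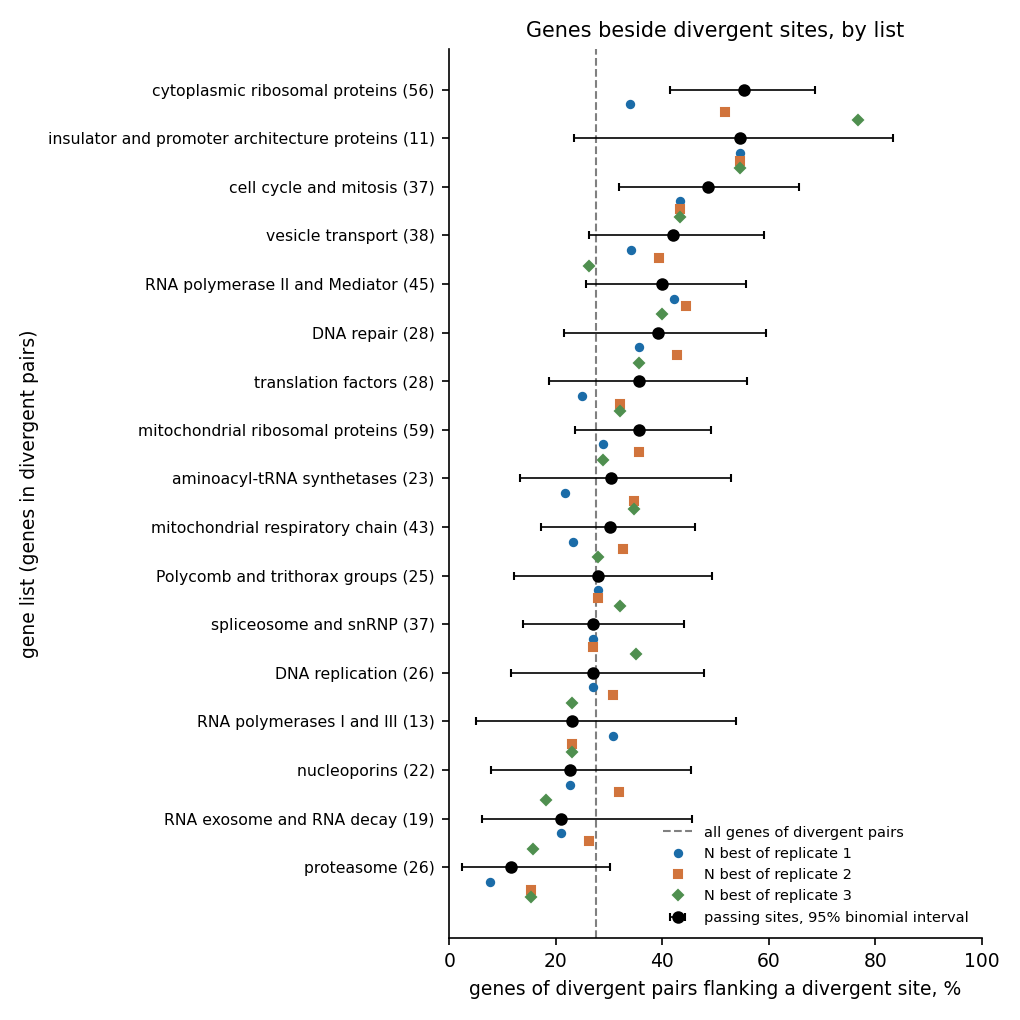
Percentage of the genes of each list in divergent pairs (number in brackets) that flank a divergent site. Black points are passing sites with 95% exact binomial intervals, coloured symbols are the N best summits of each replicate, and the dashed line is the share of all genes in divergent pairs (27.5%). Most intervals cross the line, and the replicates of the ribosomal protein list are spread from 33.9 to 76.8%.

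The cytoplasmic ribosomal protein list stood out by how its replicates spread. Its share was 33.9, 51.8 and 76.8% in replicates 1, 2 and 3, a mean of 54.2% ± 21.5 (SD, n = 3), or 42.9% without replicate 3. In the cell cycle list each replicate had 43.2%. The 32 sites beside these genes were followed further, a choice made after their values were seen. The shares above are counted from the same replicate ranks, so the rank values given next partly restate them and are no separate support. Of the 26 found in all 3 replicates, 23 had their best rank in replicate 3 (88.5%), as did 107 of the 598 other divergent sites (17.9%). The median rank of the 26 was 2235.5, 1664.5 and 745.5 in replicates 1, 2 and 3, against 1405.5, 1334.0 and 1853.5 for the other sites. At RpL13A, for example, the site shared with Dph4 and Spec2 ranked 4586, 1833 and 264, and at RpLP0 the site shared with CG7130 ranked 3943, 1714 and 371. RpL10Ab ran the other way, at 1146, 1689 and 1627.

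The same 32 sites differed from the other divergent sites in sequence and position. GC in their windows averaged 44.4% ± 11.0, against 30.2% ± 8.40 at the other 682 sites (SD over sites), and 23 of the 32 had at least 40% GC (71.9%), against 87 of the 682 (12.8%). Summits were nearer the TSS of the ribosomal protein gene than that of its partner at 27 of 32, with medians of 72.5 and 293.5 bp. Their relative distance from the midpoint had a median of 0.68, against 0.29. At RpS27 the summit was 10 bp from the TSS and the window had 50.5% GC, and at RpS28b 1 of 2 sites was 51 bp from the TSS with 58.4% GC. The relation of GC content to the replicate ranks was not tested. A rank in replicate 3 at least 2 times better than both other ranks was found at 26 divergent sites of any kind, of which 16 were beside a ribosomal protein gene. That count draws on the same ranks that led to the choice of this list.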

How the data were processed

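ChIP-seq of GFP-tagged CG16815 was deposited as lists of called regions for 3 biological replicates, their pool and a final list. Per the README deposited with them, the replicate and pooled lists are relaxed and hold background, and the final list was set by the authors with an irreproducible discovery rate threshold. The signal of each region is the authors' own, deposited with no stated normalisation, so replicate lists were compared by rank. The authors also deposited the -log10 of a q-value, which was not used for a result. For the aligner, caller, versions and threshold: not given in the sources used here. Lists on dm3 were not used. No depth is known.

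TSSs were those of all protein-coding transcripts of Ensembl release 115 (BDGP 6.54), whose coordinates are those of dm6, and sequence came from the RefSeq assembly of the same genome. Regions of replicates were matched by summits within 150 bp. Pairs of divergent promoters were neighbouring coding TSSs, minus strand then plus strand, 1 to 1000 bp apart. Of the 714 members, 127 had a further coding TSS between the outer ones. Single-promoter sites lay within 500 bp upstream of a coding TSS without such a partner. Computation used Python 3.11.15, numpy 2.4.6, pandas 2.3.3, scipy 1.17.1 and matplotlib 3.10.9, and scripts were tested on simulated data. Tests were exact sign-flip permutations over the 3 replicates, which the labels call biological. Sites were never used as replicates, and binomial intervals are exact (Clopper-Pearson).

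Members, gene lists, motifs and tests were chosen with earlier results of these data known. Chosen after values were seen were the spacing bins, the range over 200 and up to 500 bp, the runs of 20 A or T bases, the split by signal and by arm, the ribosomal protein comparison, and the numbers that stand for a result in the alternatives. Longer spacing limits and short words of sequence were also looked at and are not reported. Sites were named by rule: the 25 strongest found in all 3 replicates, up to 4 members per list, CG16815, and the weakest, the widest and those whose ranks differ most or least. Printed windows were the strongest, and the strongest with a DRE, off 2R and clear of exons. Other genes were named after their values were seen.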

Additional observations from a re-analysis of the deposited data

How the results depend on the processing

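Of 50 alternatives over the 9 kinds of result, 43 were counted as unchanged, 6 moved the value by more than its spread and 1 reversed it. For the share of the N best and the rank difference, unchanged means the same direction and side of the threshold. Since p cannot fall under 0.25 here, only the direction was free to change. For the other results it means a move smaller than the spread. The counts of motifs and of gene lists, given below, were not held to their spread. With a largest spacing of 500 bp, density in divergent intervals was 6.33 times that upstream of single promoters, in place of 4.37, and the spacing difference between pairs with and without a site was 89 bp in place of 67.5. That setting also gave a rank difference to single-promoter sites of -1.24 in place of -0.58, in the same direction. With only the most upstream TSS of each gene the density ratio was 4.92. In the 1961 strongest sites 13.5% of pairs held a site, the median relative distance from the midpoint was 0.308 in place of 0.336, the spacing difference was 29 bp, and the rank difference to single-promoter sites reversed to 0.21. The cause of these changes was not tested, except that a shorter list holds fewer sites. Leaving out each replicate in turn gave a range of 14.1 to 15.0 points for the share of the N best, -0.73 to -0.46 for the rank difference, 79.0 to 88.8% for recovery in the N best and 0.328 to 0.344 for the relative distance. For motifs the number standing for the result is how many of the 12 were more common in divergent than in all passing windows, 8, and 7 to 8 under the alternatives. A count of 7 was labelled unchanged, although the move from 8 is larger than the SD of 0.577 over replicates. The motif count ignores the size of a difference, so near-equal shares count as higher, such as 1.96 against 1.94% for Zelda. This count replaced the TATA box share, which was 29.7% and under the alternatives 30.2, 30.3, 30.5 and, with 100 bp either side of the summit, 47.2%. Lists over the overall share numbered 11, and 9 to 12 under the alternatives, all labelled unchanged although no SD was available for them. No paired analysis was possible because there is 1 group. Depth is unknown, and 3 replicates cannot give a p under 0.25.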
